A study of Mus musculus with 4 samples.

Results

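Retnla, Arg1 and Mrc1 are the usual transcript markers of alternatively activated macrophages in the mouse, and their probes were followed one by one on every array of the series. All probes whose only gene symbol in the platform annotation was one of these were taken. They numbered 4 of 20205 probes, for 3 of 9802 named genes: 1 probe for Retnla, 2 for Arg1 and 1 for Mrc1. A value on all 4 arrays was held by 3 of the 4 probes, and the other Arg1 probe had a value on 1 array only.

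The tissue was whole lung of BALB/cJ mice, an inbred strain that is a common host for experimental allergy, measured on 4 dual-colour arrays. In the first pair of arrays the lung came from mice sensitized and then challenged with ovalbumin, the egg white allergen, in UCP air, and its control was a pool of 6 non-sensitized mice in UCP air. The labels do not spell out UCP. In the other pair the lung came from sensitized and challenged mice in particle-free air, and its control was a pool of 6 non-sensitized mice in particle-free air. The challenged lung carried Cy5 on array 1 of each air and Cy3 on array 2. Sensitization and challenge always came together and cannot be told apart, so the challenge effect below means both. The labels mention RNA of individual organs but leave unstated whether both arrays of an air show different animals, so each p-value reflects only how far arrays differed, which may be technical.

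Every value is a log2 ratio, challenged lung over the control pool of its air. Array 1 and array 2 of UCP air held 19832 and 19546 probe values, those of particle-free air 19439 and 19349, and 18160 probes were complete. Over probes, the arrays correlated with each other at 0.06 to 0.14 (Pearson). Extreme ratios, including those held at an upper or lower limit, were kept and can weigh heavily in this measure. With 4 arrays the precision is limited. The sign of the ratios is likely rather than known. It follows the custom of giving Cy5 over Cy3, and 5 genes that are typically abundant in the allergic mouse lung (Chil3, Ccl8, Slc26a4, Itln1 and Tff2) had 19 of their 20 values above 0. These 5 genes belong to gene lists that were chosen with earlier results of these data known, so they give no independent check. Retnla, Arg1 and Mrc1 played no part in setting the sign. A ratio does not show how strongly a gene is expressed, so the lung label could not be checked against lung markers. In whole tissue, more cells of a type and more RNA per cell cannot be told apart.

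Macrophages take on the alternatively activated state when interleukin 4 or interleukin 13, the cytokines of type 2 immunity, bind a receptor that contains the interleukin 4 receptor alpha chain. The receptor activates the transcription factor STAT6, which switches on a characteristic set of genes. In mice this set includes a secreted protein (Retnla), an enzyme (Arg1) and a receptor (Mrc1), and it is a hallmark of lungs with allergic inflammation or helminth infection.

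Retnla encodes resistin-like molecule alpha, also called FIZZ1, a small cysteine-rich protein first found in the inflamed lungs of allergic mice. Macrophages, eosinophils and airway epithelium can all secrete it. Arg1 encodes arginase 1, which splits arginine into ornithine and urea. Hepatocytes use it in the urea cycle, and in macrophages it draws on the same arginine as nitric oxide synthase. Mrc1 encodes the macrophage mannose receptor CD206, an endocytic receptor for mannose-bearing glycoproteins. Resident alveolar macrophages carry it even without inflammation, as do sinusoidal and lymphatic endothelia.

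The DNA just before the transcription start is shown for the genes present in the promoter table of RefSeq, because members that lay on the same side of 0 on every array are known targets of 1 pathway. The table held Retnla and Mrc1. Printed 5′ to 3′ are the 250 bases before each start on the plus strand of build GRCm38.p6, chr16:48842359-48842608 for Retnla and chr2:14229164-14229413 for Mrc1. Capitals mark matches, on either strand, to STAT6 (TTC and GAA separated by any 4 bases, which reads the same on both strands), C/EBP (TTGCNNAA), PU.1 (GAGGAA) or a TATA box (TATAAA), where N is any base.
Retnla promoter: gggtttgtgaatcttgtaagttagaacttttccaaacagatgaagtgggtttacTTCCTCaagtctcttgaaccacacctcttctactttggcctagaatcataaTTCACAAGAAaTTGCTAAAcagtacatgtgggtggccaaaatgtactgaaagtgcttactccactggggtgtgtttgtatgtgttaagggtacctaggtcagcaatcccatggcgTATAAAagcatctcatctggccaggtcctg
Mrc1 promoter: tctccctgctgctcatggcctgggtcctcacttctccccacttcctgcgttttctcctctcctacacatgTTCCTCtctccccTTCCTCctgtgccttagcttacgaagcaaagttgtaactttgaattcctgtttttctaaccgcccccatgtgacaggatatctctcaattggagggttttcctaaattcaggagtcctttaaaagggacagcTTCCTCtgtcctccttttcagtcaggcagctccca

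In the Retnla window the letters TTCACAAGAA matched STAT6 and began 145 bases before the start. The letters TTGCTAAA, 1 base further on, matched C/EBP and began 134 bases before it. A TATA box match began 30 bases before the start and a PU.1 match began 196 bases before it on the opposite strand. The Mrc1 window held 3 PU.1 matches, beginning 180, 167 and 35 bases before the start, and none of the other motifs. Of 32851 windows of the same length in the table, 5.85% held a STAT6 match, 9.56% a C/EBP match, 23.3% a PU.1 match and 12.4% a TATA box match. STAT6 and C/EBP matches stood together in 0.609% of the windows. At most 1 base apart they stood in 1 window, that of Retnla, a spacing chosen after its sequence was seen. At least 3 PU.1 matches were found in 0.429% of the windows. A match describes letters only.

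Retnla had one of the highest ratios on 3 of the 4 arrays and a far lower one on the fourth. Its log2 ratios were 5.97 and 5.49 on arrays 1 and 2 of UCP air, against 5.34 and 1.30 on arrays 1 and 2 of particle-free air. As folds over the control pool these were 62.9 and 44.9 in UCP air, against 40.4 and 2.46 in particle-free air. The 3 high values lay close together, and array 2 of particle-free air stood apart below them.

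In rank from the top, Retnla was probe 21 of 19832 and probe 22 of 19546 on arrays 1 and 2 of UCP air, against probe 41 of 19439 and probe 713 of 19349 on those of particle-free air. On array 1 of UCP air the 20 probes above it all sat on the array's cap for very large ratios. On array 1 of particle-free air 25 of the probes above it sat on the cap. Array 2 of each air had no cap at that end. Ranks here and below follow the likely sign of the ratios, and with the sign turned they count from the bottom. On array 2 of UCP air the ratio behind its value was 0.027, rounded to 3 decimals before deposit, which leaves the log2 ratio anywhere from 5.46 to 5.52. Rounding was negligible on the other arrays.

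The averaged log2 ratio of Retnla was 4.52 ± 2.17 (SD, n = 4), a 23.0-fold level, and it lay above 0 on 4 of 4 arrays (limma adjusted p = 0.15). Over 11 alternative settings its adjusted p ran from 0.07 to 0.597. Without array 2 of particle-free air the mean of the other 3 was 5.60 ± 0.33 (SD, n = 3), a 48.5-fold level. The 2 Cy5 arrays averaged 5.66 and the 2 Cy3 arrays 3.39. The gene did not pass the test, although its ratio was the largest of the members on 3 arrays.

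Mrc1 had ratios well above 0 on every array, close to each other. Its log2 ratios were 2.10 and 1.82 on arrays 1 and 2 of UCP air, against 1.81 and 1.56 on arrays 1 and 2 of particle-free air. These were levels of 4.28- and 3.53-fold in UCP air, against 3.51- and 2.95-fold in particle-free air. Both UCP arrays lay above both particle-free arrays, by 0.01 at the nearest. The averaged log2 ratio was 1.82 ± 0.22 (SD, n = 4), a 3.53-fold level (limma adjusted p = 0.0804). Over 11 alternative settings its adjusted p ran from 0.0551 to 0.494.

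In rank, Mrc1 stood at 148 and 379 from the top in UCP air, against 441 and 503 in particle-free air. Between 0.741% and 2.59% of an array's probes had a higher ratio. Its SD over arrays was 0.22, against 2.17 for Retnla.

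Arg1 was represented by a pair of probes annotated to the same reference transcript. The probe measured on all arrays had log2 ratios of 1.28 and 1.48 on arrays 1 and 2 of UCP air, against 1.59 and 1.21 on arrays 1 and 2 of particle-free air. These were levels of 2.43- and 2.79-fold in UCP air, against 3.01- and 2.31-fold in particle-free air. The airs overlapped, with the highest and the lowest value both in particle-free air. The averaged log2 ratio was 1.39 ± 0.18 (SD, n = 4), a 2.62-fold level above 0 on 4 of 4 arrays (limma adjusted p = 0.109). Over 11 alternative settings its adjusted p ran from 0.0804 to 0.564.

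The other Arg1 probe had a single value, 4.67 on array 1 of UCP air, a 25.5-fold level. On that array it ranked 29 from the top, while the fully measured probe ranked 425, with 20 capped probes above both. The probes thus differed there by 3.39 on the log2 scale, or 10.5-fold. The size of the Arg1 ratio depends on the probe, and with 1 value the larger one has no replicate check. On the fully measured probe between 2.14% and 4.27% of an array's probes had a higher ratio than Arg1.

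**Figure D1:**
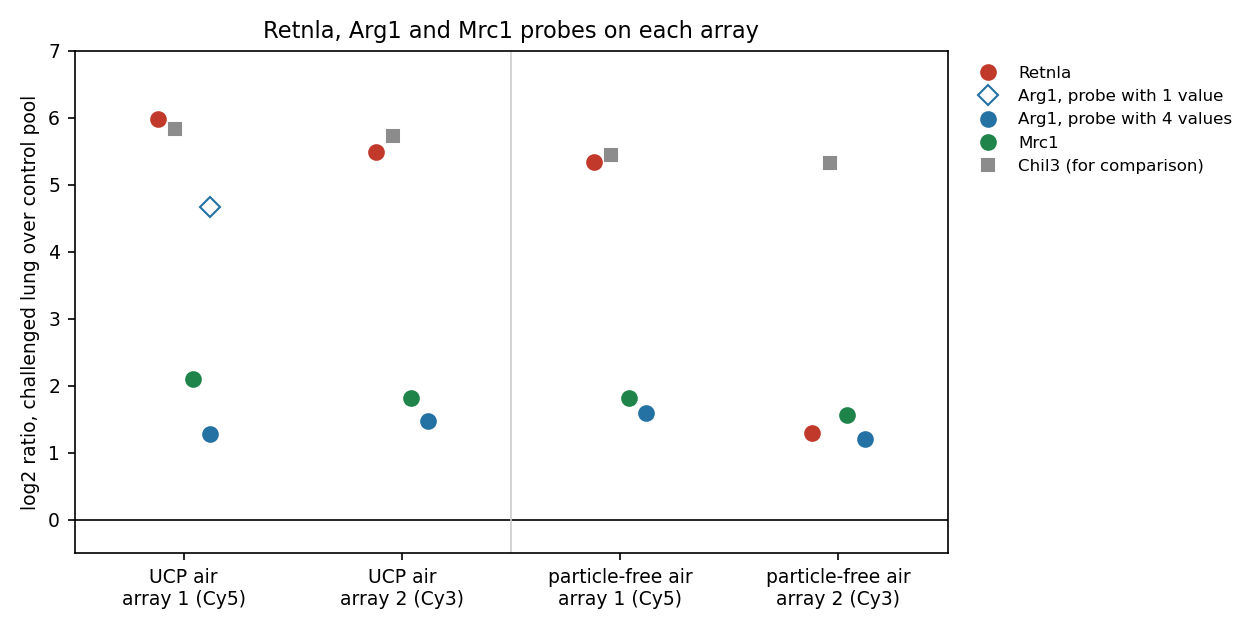
The vertical axis gives the log2 ratio of challenged lung over its control pool, and the horizontal axis the 4 arrays with the dye of the challenged lung. Each point is 1 probe on 1 array, the open diamond is the Arg1 probe with 1 value, and grey squares show Chil3. Retnla lies beside Chil3 at 5.34 to 5.97 on 3 arrays and at 1.30 on array 2 of particle-free air.

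Few probes had ratios this high on every array. Above 0 on all 4 arrays were 3 of the 3 probes with 4 values, where 12.7% of all 18160 probes were. At least 1.5-fold higher on every array were 3 of the 3 probes with 4 values, where 1.13% of all probes were, and 1.20% were lower by as much. At 2-fold the count was again 3 of 3, against 0.341% of all probes higher and 0.396% lower. Both airs gave the same: in UCP air 3 of 3 were at least 2-fold higher on both arrays (0.903% of all probes higher and 1.57% lower), and in particle-free air 3 of 3 (1.05% higher and 1.26% lower). With the sign of the ratios turned, the lower shares would apply. These counts use no estimate of the spread, and the members were chosen with earlier results of these data known, so the counts describe the 3 genes and test nothing. By exact sign-flip permutation over the arrays each member had p = 0.125, two-sided, the smallest that 4 arrays allow.

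In the fit over all probes, 0 of the 3 members passed for the averaged effect (limma, adjusted p threshold 0.05), and 3 of 3 had an unadjusted p under 0.05. Among all probes 0.00551% were called higher, namely Chil3 alone, and 6.45% were higher and 7.59% lower at p under 0.05 before adjustment. The unadjusted p was 0.00019 for Mrc1, 0.000658 for Arg1 and 0.00232 for Retnla by limma, so the member with the largest ratio had the largest p. With 1 array left out, the number of called probes ran from 0 to 34, as listed in the closing section, and no member was among them.

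The next question was whether the challenge effect differed between airs. Retnla averaged 5.73 ± 0.34 in UCP air and 3.32 ± 2.86 in particle-free air (SD, n = 2 each), a difference of 2.41 with a 95% interval from -1.39 to 6.22 (limma adjusted p = 0.984). Without array 2 of particle-free air the difference was 0.40, with an interval from -0.80 to 1.59 (limma adjusted p = 0.816). Over 10 alternatives the adjusted p of this difference was 0.217 or higher. The difference for Retnla therefore rested on that array.

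Mrc1 averaged 1.96 ± 0.20 in UCP air and 1.69 ± 0.18 in particle-free air (SD, n = 2 each). Their difference was 0.27, with a 95% interval from -0.56 to 1.11 (limma adjusted p = 0.984). Arg1 averaged 1.38 ± 0.14 in UCP air and 1.40 ± 0.27 in particle-free air (SD, n = 2 each). Their difference was -0.02, with a 95% interval from -0.87 to 0.84 (limma adjusted p = 0.998). All 3 intervals held differences of either sign, and that of Retnla was the widest.

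Both UCP arrays lay above both particle-free arrays for 2 of the 3 probes, Retnla and Mrc1, and for 17.7% of all probes. limma called 0 probes for the difference, while 355 (1.95%) were higher and 367 (2.02%) lower in UCP air without adjustment at p under 0.05. Without 1 array the number of calls ran from 0 to 32, with no member among them.

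**Figure D2:**
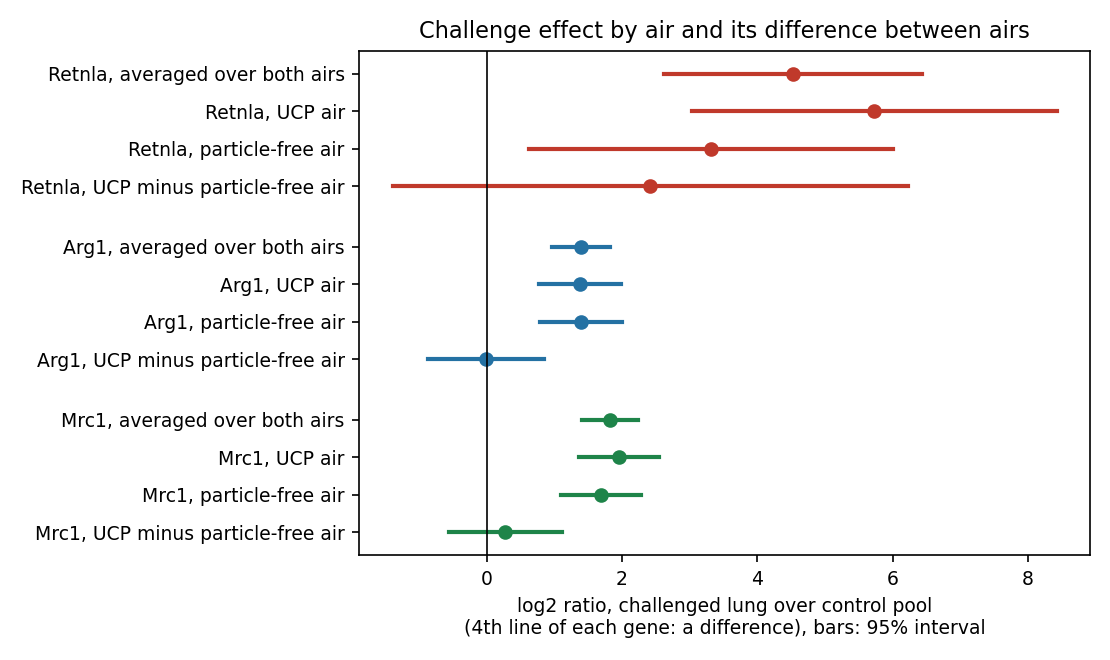
Points are the fitted challenge effects of each gene and bars their 95% intervals from limma, on the log2 scale; the 4th line of each gene is the difference between airs. Intervals of the averaged effect run from 2.62 to 6.43 for Retnla, from 0.96 to 1.82 for Arg1 and from 1.40 to 2.24 for Mrc1, and all 3 intervals of the difference span 0.

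Within one air, no member passed either. The adjusted p by limma was 0.288 for Retnla, 0.198 for Mrc1 and 0.277 for Arg1 in UCP air. In particle-free air it was 0.434 for Retnla, 0.258 for Mrc1 and 0.313 for Arg1. No probe was called in either air (0% higher), while 3.70% of all probes were higher in UCP air and 4.55% in particle-free air at an unadjusted p under 0.05. All 3 members were among those higher at that level in both airs. Over their alternatives the adjusted p of the 3 genes ran from 0.128 to 0.999 in UCP air and from 0.152 to 0.749 in particle-free air.

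The genes with the most similar pattern were found by the Euclidean distance between log2 ratios over the 4 arrays, taking the 5 nearest named probes. For Retnla these were Chil3, Slc26a4, Ccl9, Ccl8 and Lcn2, at distances from 4.03 to 4.84. On array 2 of particle-free air all 5 lay above Retnla, from 2.67 for Lcn2 to 5.32 for Chil3. Over the other 3 arrays, a choice made after seeing the values, Chil3 lay at a distance of 0.29 from Retnla and the next gene, Slc26a4, at 2.72. Chil3 encodes the chitinase-like protein Ym1 of alternatively activated macrophages. Slc26a4 encodes pendrin, which exchanges anions across the airway epithelium.

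Arg1 lay nearest to Gpnmb (distance 0.20), a glycoprotein of lysosome-rich macrophages, at 1.32 ± 0.17 (SD, n = 4). Ctsz and Ctsb, lysosomal cathepsins, followed at 1.31 ± 0.27 and 1.43 ± 0.19, with Tff2, a trefoil peptide of mucous surfaces, at 1.36 ± 0.14 and 1 probe of the ribosomal protein gene Rps9 at 1.39 ± 0.16. Mrc1 lay nearest to Cpa1 (distance 0.38), a carboxypeptidase, at 1.69 ± 0.09, then to Gsg1 at 1.91 ± 0.33, the calcium-binding protein gene S100a4 at 1.98 ± 0.37, the chitinase-like gene Chil1 at 1.81 ± 0.32 and Lgals3, the galectin of phagocytes, at 1.82 ± 0.28 (SD, n = 4 each). Distances over 4 arrays describe likeness in these arrays only.

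The members can be set beside other genes of the same biology. For this the mean over the probes of each gene was taken and the fit was run on 9153 genes, of which 0.0656% were called higher and 0.0328% lower for the averaged effect. At an unadjusted p under 0.05 the shares were 8.06% and 7.56%, and 1.16% were at least 1.5-fold higher on every array. The median of all genes was -0.01, with 4420 of the 9153 above 0 and 4733 below it. In that fit Mrc1, Arg1 and Retnla had adjusted p of 0.0551, 0.0804 and 0.127 by limma.

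Other markers of alternative activation lay mostly above 0. Of 12 measured, 10 lay above 0, with a median of 0.63, and 2 rose by limma, Chil3 at 5.58 ± 0.24 (adjusted p = 0.00598) and the chemokine Ccl8 at 3.13 ± 0.61 (SD, n = 4 each; adjusted p = 0.0465). Both had been used for the overall direction. At least 1.5-fold higher on every array were 5 (6 without array 2 of particle-free air): these, the type 2 chemokines Ccl17 at 1.95 ± 0.85 and Ccl22 at 1.03 ± 0.27, and the scavenger receptor Msr1 at 1.23 ± 0.34 (the last 3 named after their values were seen). A further Msr1 probe, incomplete and left out of that mean, had 0.68 and -0.33 in UCP air, against 1.58 on array 1 of particle-free air. Ccl17 had 2.01 and 2.57 on the arrays of UCP air, against 2.49 and 0.73 on those of particle-free air. Array 2 of particle-free air was thus its lowest, as it was for Retnla, Arg1, Mrc1, Chil3, Ccl22 and Msr1, though not for Ccl8. The folate receptor gene Folr2 at -0.05 ± 0.48 and Il1rn, the interleukin 1 receptor antagonist, at -0.23 ± 0.35 were the lowest.

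Markers of classical activation, the state driven by interferon gamma and bacterial products, had a median of 0.33 over 7 genes, and 0 of them passed by limma (2 at an unadjusted p under 0.05). None was at least 1.5-fold higher on every array. The costimulatory receptor Cd40 lay at 0.83 ± 0.62, the cytokine Il1b at 0.73 ± 0.69, the transcription factor Irf1 at 0.42 ± 0.25, Cd86 at 0.33 ± 1.90, Tnf at 0.09 ± 0.13, the chemokine Ccl5 at -0.24 ± 0.36 and Irf5 at -0.52 ± 1.57 (SD, n = 4 each). Nos2, which in macrophages draws on the same arginine as Arg1, was not analysed here. The difference between the activation lists was not tested.

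In the resistin family, Retn, the fat cell hormone resistin, had -0.64 and -0.89 on the arrays of UCP air, against 0.71 on array 1 of particle-free air, with no value on array 2. Retnla was thus the only one of the pair with positive ratios on all its arrays. Fat cell genes lay below 0 in 11 of 11 cases, with a median of -0.87, and 2 of them fell by limma: Gpd1 at -2.48 ± 0.91 and Car3 at -2.03 ± 0.49 (adjusted p = 0.0491 and 0.04998). The highest were Dgat2 at -0.29 ± 0.87 and Cidec at -0.47 ± 0.65 (SD, n = 4 each). An incomplete Dgat2 probe, left out of that mean, had -2.77 on array 1 of UCP air, against -1.40 and -1.02 on the particle-free arrays. The median of the fat cell genes was -1.13 in UCP air and -0.64 in particle-free air. The part of fat tissue in the members' ratios was not tested.

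Arg1 was set beside genes of arginine transport and metabolism and of the polyamine and proline pathways that follow from ornithine. Of 16 such genes, 10 were above 0 and 6 below it, around a median of 0.07. By limma 0 passed, 1 was higher and 0 lower at p under 0.05 before adjustment, and 0 were at least 1.5-fold higher on every array. Slc3a2, the heavy chain of amino acid transporters, was highest at 1.05 ± 1.86, from 3.82 on array 2 of UCP air alone. Smox, which oxidises spermine, lay at -0.24 ± 0.55 and Asl, which makes arginine, at -0.31 ± 0.68 (SD, n = 4 each). Odc1, which turns the ornithine made by arginase into putrescine, had 0.30 on array 1 of UCP air, against -0.20 and -0.81 on the particle-free arrays.

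Arg1 is also a liver enzyme, and liver transcripts had higher ratios in particle-free air. The 24 measured liver genes had a median of 0.23 in UCP air and 1.62 in particle-free air; by array the medians were 0.34 and 0.19 in UCP air, against 1.98 and 1.84 in particle-free air. Alb, the gene of serum albumin, averaged 0.14 ± 0.95 in UCP air and 4.61 ± 0.20 in particle-free air (SD, n = 2 each). By limma 0 of the 24 passed for the difference between airs, and 16 were lower and 0 higher in UCP air at p under 0.05 before adjustment, where 2.15% of all genes were lower and 1.79% higher. Hpx, the heme carrier, averaged 0.84 ± 0.50 in UCP air and 3.66 ± 0.23 in particle-free air, while the lowest were Itih1 and Trf, with means over 4 arrays of -0.07 and -1.69. The mean of Trf rests on array 2 of UCP air, where 1 of its probes sat on the cap at -16.33.

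The log2 ratio of Arg1 was as large in UCP air (1.38), where the liver median was 0.23, as in particle-free air (1.40), where it was 1.62. The enzymes that work beside Arg1 in the hepatic urea cycle had small ratios in both airs. Cps1 averaged 0.08 ± 0.19 in UCP air and 0.24 ± 0.25 in particle-free air, and Ass1 averaged -0.02 ± 0.18 in UCP air and -0.27 ± 0.67 in particle-free air (SD, n = 2 each). Asl averaged -0.28 ± 0.68 in UCP air and -0.33 ± 0.97 in particle-free air. The part of liver RNA in the particle-free ratio of Arg1 was not tested.

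**Figure D3:**
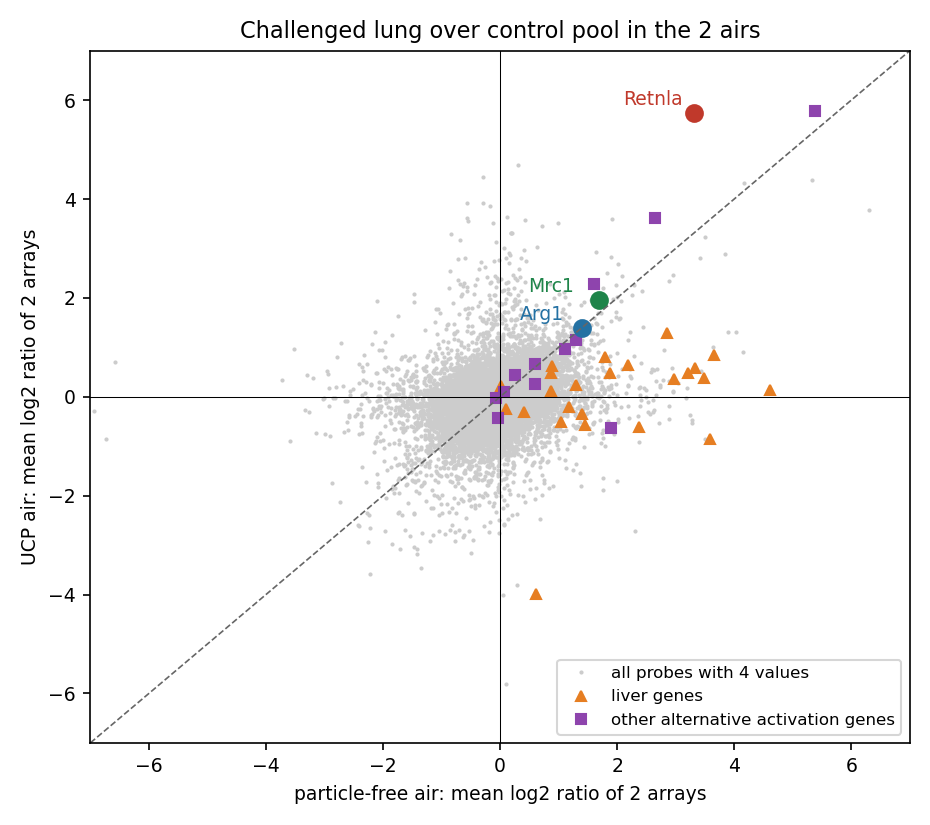
Each point is the mean log2 ratio of the 2 arrays of particle-free air (horizontal) and of UCP air (vertical), for 18072 probes in grey (88 outside the axes), for liver genes as triangles and for other alternative activation genes as squares. Arg1 and Mrc1 lie close to the dashed line of equal effects, Retnla above it at 5.73 and 3.32, and most liver genes to the right of it.

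Around Mrc1, the 6 other measured members of the mannose receptor family and myeloid C-type lectins had a median of 0.52, 4 above and 2 below 0. By limma 0 of them passed, and 2 were higher at an unadjusted p under 0.05. Cd209d, a relative of the dendritic cell lectin DC-SIGN, was at least 1.5-fold higher on every array, with 1.02 and 1.56 in UCP air, against 1.18 and 0.93 in particle-free air. Its mean was 1.17 ± 0.28, and Cd302 followed at 0.67 ± 0.44 (SD, n = 4 each). Clec4a2 averaged 1.22 ± 1.27, with 2.55 and 0.16 in UCP air, against 0.11 and 2.05 in particle-free air. Mrc2, the closest relative of Mrc1 among them and a collagen receptor, lay at 0.36 ± 1.10, Ly75 at -0.12 ± 0.43 and Clec4d at -0.20 ± 0.17. On array 1 of particle-free air the complete Mrc2 probe had 1.955, while an incomplete one, left out of that mean, had -0.045. On array 1 of UCP air they had -0.43 and -0.45.

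General macrophage and monocyte genes also lay mostly above 0. Of 14 measured, 11 lay above 0, with a median of 0.81 (0.75 in UCP air and 0.66 in particle-free air), and 6 were at least 1.5-fold higher on every array. By limma 0 passed, with 9 higher and 0 lower at p under 0.05 before adjustment. Ctss, a cathepsin of antigen processing, lay at 2.27 ± 0.36 and Lgals3 at 1.82 ± 0.28. Marco, a scavenger receptor of resident alveolar macrophages, lay at -0.36 ± 0.36, with 1 of 4 arrays above 0, and the lysozyme gene Lyz2 at -0.34 ± 0.33 (SD, n = 4 each). Resident alveolar macrophages also carry Mrc1, and their part in its ratio was not tested.

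Endothelial genes that accompany Mrc1 in sinusoids and lymphatics had a median of 0.02 over 6 genes, and 0 passed by limma (2 higher and 1 lower at p under 0.05 before adjustment). Pdpn lay at 0.87 ± 0.32, Fcgr2b at 0.70 ± 0.41, the scavenger receptor Stab1 at 0.08 ± 0.22, Flt4 at -0.05 ± 0.17, Clec4g at -0.37 ± 1.72 and Prox1, which specifies lymphatic fate, at -0.56 ± 0.35 (SD, n = 4 each). Their part in the Mrc1 ratio was not tested. Dendritic cell genes had a median of 0.18 over 8 genes, and 0 passed by limma (3 higher at an unadjusted p under 0.05). Cd74 lay at 0.90, H2-Ab1 at 0.86, Irf8 at 0.77, Ccr7 and Zbtb46 at 0.18, Itgae at 0.15, Flt3 at 0.12 and Clec9a at -0.51.

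The upstream pathway was only partly measured, since Il13, Il4ra and Stat6 were not analysed here. The 10 measured genes of interleukin 4 and 13 signalling had a median of -0.07, 4 above and 6 below 0. By limma 0 passed, with 2 higher and 1 lower at p under 0.05 before adjustment. Cish, a feedback inhibitor induced by STAT signalling, lay at 1.32 ± 0.32, at least 1.5-fold higher on every array, and Irf4, a transcription factor of alternative activation, at 0.52 ± 0.27. Klf4, which cooperates with STAT6 in macrophages, lay at -0.82 ± 0.66 and the epithelial cytokine Tslp at -0.84 ± 1.25 (SD, n = 4 each). Il4 had 0.28 and 0.13 in UCP air, against 2.47 on array 2 of particle-free air and no value on array 1.

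Markers of other cells that can make Retnla were measured as well. Eosinophil genes had a median of 0.49 over the 5 genes with a complete probe, all above 0 on average over such probes. By limma 0 of them passed (2 at an unadjusted p under 0.05). Alox5ap, which serves leukotriene synthesis, lay at 0.97 ± 0.32, the receptor subunit Csf2rb2 at 0.84 ± 0.24, Prg2, the granule major basic protein, at 0.49 ± 0.44, Csf2rb at 0.26 ± 0.30 and Prg3 at 0.12 ± 0.18 (SD, n = 4 each). Incomplete probes were left out of these means. A further Prg2 probe had 1.23 on array 2 of UCP air, against -0.19 and -0.99 on the particle-free arrays. Epx, the eosinophil peroxidase, had -1.77 on array 1 of UCP air, against 0.36 and -2.66 on the particle-free arrays.

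Airway secretory genes had a median of 0.36 over 9 genes and pointed both ways. Slc26a4 rose, at 4.24 ± 0.51 (limma adjusted p = 0.0491 with the probes of a gene averaged), and Tff2 lay at 1.36 ± 0.14. Both had been used for the overall direction. The club cell cytochromes Cyp4b1 and Cyp2f2 lay at -0.99 ± 0.23 and -1.29 ± 0.39 (SD, n = 4 each). Neutrophil genes had a median of 0.43 over 11 genes, with Chil1 at 1.81 ± 0.32 and Lcn2 at 1.64 ± 0.49 highest and Ltf at -0.08 and Itgb2l at -0.55 lowest. By limma 0 of these passed, with 5 higher at an unadjusted p under 0.05. The Lcn2 value is a mean of 2 probes that differed. The probe named among the nearest to Retnla averaged 3.10 ± 1.06 (SD, n = 4), so the other lay below 1.64. The part of each of these cell types in the Retnla ratio was not tested.

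As a control for the scale of these ratios, 7 housekeeping genes had a median of 0.16, with B2m at 0.53, Ppia at 0.52, Tbp at 0.51, Rplp0 at 0.16, Actb at -0.08, Gapdh at -0.20 and Sdha at -0.38. The 3 red cell genes had a median of -0.57, with Alas2 at -0.26, Hba-a1 at -0.57 and Slc4a1 at -0.83. By limma 0 of the 10 passed, with 2 housekeeping genes higher and 2 red cell genes lower at p under 0.05 before adjustment. Over complete probes, all 3 members had averaged ratios above every one of these 10 genes. Another Actb probe, incomplete and left out, had 1.07 and 0.01 in UCP air, against 2.385 on array 2 of particle-free air. On that array it lay above all 3 members.

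**Figure D4:**
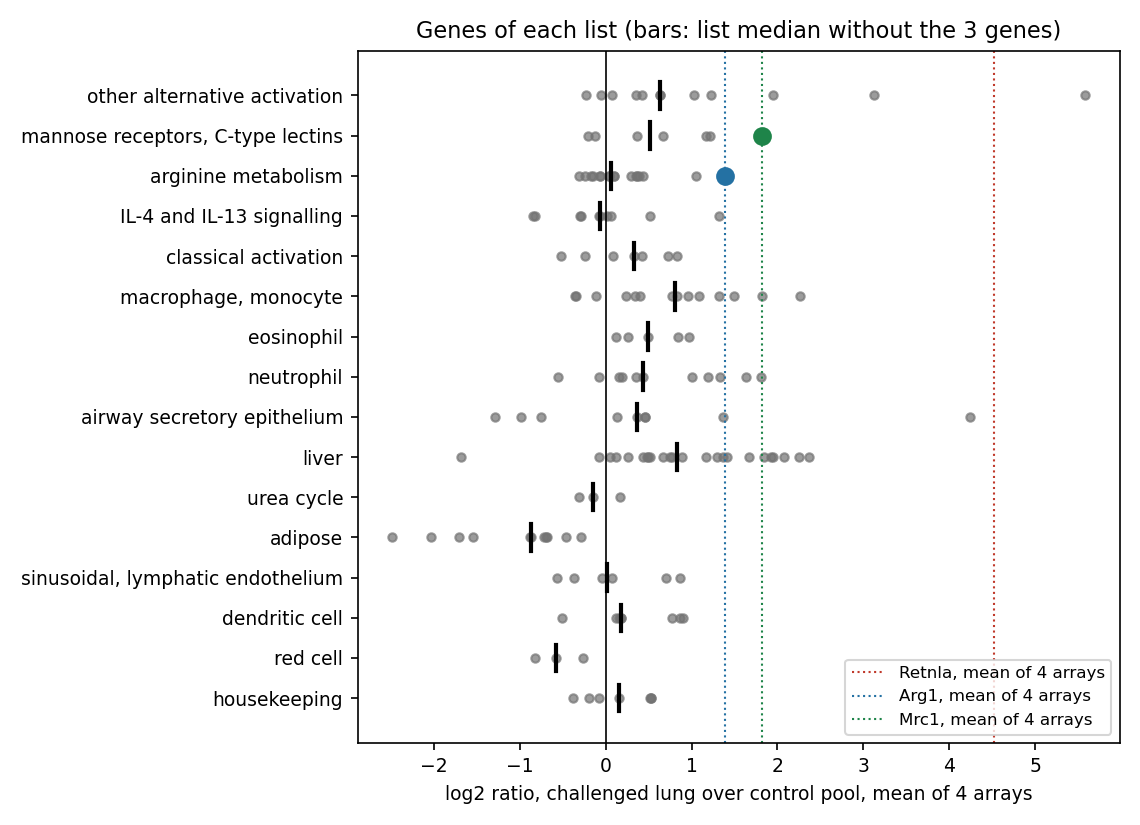
Each grey point is the averaged log2 ratio of 1 gene over 4 arrays, grouped by list, with bars at the list medians without Retnla, Arg1 and Mrc1. Coloured points and dotted lines mark Arg1 at 1.39, Mrc1 at 1.82 and Retnla at 4.52, beside medians of 0.63 for other alternative activation genes, 0.33 for classical activation genes and -0.87 for fat cell genes.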

How the data were processed

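The authors deposited log2 ratios per probe and array without stating scale, centring or direction. Scanner, image analysis and normalization were not given in the sources used here. Per the labels' protocols, 20 µg of total RNA was labelled indirectly with Cy3 or Cy5. Each array had a plateau at a ratio of 100000 shifted by an array constant, upward on Cy5 arrays and downward on Cy3 arrays. The ratios thus run one way across arrays. Ratios had been rounded to 3 decimals. Values were used as deposited, with no filter on dim probes because no brightness values were used here. Of 20205 probes, 13852 had 1 gene symbol, 0 several and 6353 none in the platform annotation.

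limma 3.58.1 (R 4.3.3) was fitted with 1 coefficient per air to the 18160 probes with 4 values (2 residual and 2.32 prior degrees of freedom), two-sided, with Benjamini-Hochberg adjustment over all probes at 0.05. The control pool counts as 1 control sample, so a test against 0 leaves out the spread among controls. Named were all member probes, their 5 nearest named probes, and all genes of a list of up to 8, otherwise its 2 highest and 2 lowest. The 3 members and 17 gene lists were chosen with earlier results of these data known. Same-numbered arrays shared a dye orientation and no stated sample.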

Additional observations from a re-analysis of the deposited data

Results flagged for a closer look

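Among 86 sets of 4 array values examined for 1 value far from the other 3 (Dixon's ratio above its 95% critical value), 7 stood out, where chance gives about 1 in 20. For Retnla the gap of array 2 of particle-free air was 0.864 of the whole range. Probes on which 1 array lay at least 4 below 3 others that were within 1 of each other numbered 0 and 22 for arrays 1 and 2 of UCP air, against 5 and 21 for those of particle-free air. At least 4 above the others, they numbered 3 and 28 in UCP air, against 16 and 8 in particle-free air. The cap lay at the low end on array 2 of each air and at the high end on array 1, and its part in these counts was not tested. Of 3 probes with at least 4 on the other arrays, Retnla was the 1 that lay at least 4 lower on array 2 of particle-free air. It met that limit narrowly, with 1.30 there and 5.34 on array 1 of particle-free air. These limits were not among the planned comparisons, so the counts describe the arrays and test nothing. Dixon's ratio was 0.868 for Slc3a2 (3.82 on array 2 of UCP air), 0.872 for Cish (0.84 on array 1 of particle-free air), 0.913 for Trf (-8.03 on array 2 of UCP air), 0.832 for H2-Ab1 (0.25 on array 1 of UCP air), 0.915 for Rplp0 (0.65 on array 1 of particle-free air) and 0.90 for Sdha (-0.85 on array 2 of UCP air).

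The Arg1 probe with 1 value gave a signal outside the tested measurements, 4.67 on array 1 of UCP air, where the fully measured Arg1 probe had 1.28.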

How the results depend on the processing

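Retnla, Mrc1 and Arg1 kept their direction in the averaged effect and in each air, and stayed short of the threshold, under all 11 alternatives tried for each. Every value of these genes was above 0, so averaging arrays or leaving 1 out could not have turned that direction. Within 1 air, leaving out an array of the other air repeated the fit on its own arrays alone. The averaged log2 ratio ran from 3.52 to 5.53 for Retnla, the ends being without array 1 and without array 2 of particle-free air, from 1.75 to 1.89 for Mrc1 and from 1.29 to 1.49 for Arg1. In particle-free air Retnla ran from 1.30 to 5.34 as 1 of its arrays was left out. Its difference between airs ran from 0.40 to 4.43, without array 2 and without array 1 of particle-free air. The difference for Arg1, -0.02, turned to 0.19 with centring and scaling of the arrays, and ran from -0.21 to 0.17 with 1 array left out; the cause was not tested. With the replicate number, which is also the dye orientation, as a replicate block, the averaged adjusted p by limma was 0.289 for Mrc1, 0.294 for Retnla and 0.302 for Arg1. The deviations of same-numbered arrays correlated at 0.05 by Pearson and at 0.12 by Spearman.

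The number of called probes moved more. For the averaged effect it was 2 with arrays centred and scaled, 0 with the block, 0 with the arrays of an air averaged, 9 with the probes of a gene averaged and 5 with capped ratios missing, against 1. Without 1 array it ran from 0 to 34 (34 without array 1 and 0 without array 2 of UCP air, 22 without array 1 and 9 without array 2 of particle-free air). In UCP air it was 2 with the probes of a gene averaged and 0 to 36 without 1 array (36 without array 1 and 4 without array 2 of that air), against 0. In particle-free air it was 1 with the probes of a gene averaged, 10 with every probe that had any value and 0 to 24 without 1 array (24 without array 1 and 8 without array 2 of that air), against 0. For the difference it was 0 to 32 without 1 array (32 without array 1 of UCP air, 19 and 8 without arrays 1 and 2 of particle-free air), against 0. Probes at least 1.5-fold changed on every array numbered 424, 134 at 2-fold, 199 with the probes of a gene averaged and 609 to 696 without 1 array. A list's median moved by more than its spread between arrays in 23 of 357 recomputations. Many of the 357 could not move, since leaving out an array of one air repeats the median of the other air. With capped ratios missing, every list median stayed the same. Brightness over background was not analysed here, so dim probes cannot be told from bright ones.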
